A study of Caenorhabditis elegans with 2 samples.

Results

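The regions described here are the 3963 candidate binding regions of HMG-11 in Caenorhabditis elegans that lay just below the study's peak threshold. They were chosen by the authors' signal value: in the list made from the pooled replicates (30000 regions), they held ranks 4038 to 8000, with rank 1 the strongest. They are called members below. The 4037 regions above them are, region for region, the study's peaks thresholded by the irreproducible discovery rate, and the 22000 below them, ranks 8001 to 30000, are called weaker regions. Because signal chose the members, every value of signal, rank or q-value is given as a description and was not tested.

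HMG-11 is a small chromatin protein of the HMGA type. Proteins of this type carry AT-hook motifs, which fit into the minor groove where DNA is rich in A and T, and they are known as architectural factors that bend DNA and help other proteins assemble at promoters and enhancers. A list of candidate regions ranked by signal has no natural edge, and a threshold on such a list separates neighbours in rank that may be much alike.

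The animals were whole hermaphrodites of strain TH184 in larval stage L3, which were collected 52 h after hatchlings had been synchronised by bleaching and starvation. All of them carried the unc-119(ed3) mutation on chromosome III and the integrated transgene ddIs101, which made HMG-11 fused at its C terminus to GFP and FLAG. The sources used here do not give the promoter or the copy number of the transgene, and whole animals mix all tissues. Sonicated chromatin was precipitated with an antibody against GFP in 2 biological replicates of 1 group, and libraries of untagged animals or of input chromatin were not analysed here. Positions are on genome build ce11, which is WBcel235. Read depth is unknown from these lists, and intervals are 95% intervals over regions, which cover neither depth nor the spread between animals.

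Windows of 101 bp centred on the summit show what was read as base composition below. They were taken from the plus strand of the RefSeq reference sequence of WBcel235, and capitals mark runs of 5 or more A or T, the kind of DNA that AT-hooks are known for. The windows at ranks 4037, 4038 and 4039 stand on either side of the threshold, the next ones are examples of strong members of other classes, though not in each class the strongest, and the last 2 are the members of highest and lowest A+T content.
rank 4037, the last peak, promoter window of F56B6.6, chrX:3533868-3533968, A+T 72.3%: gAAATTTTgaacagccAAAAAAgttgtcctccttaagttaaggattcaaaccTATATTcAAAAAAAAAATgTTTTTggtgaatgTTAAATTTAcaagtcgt
rank 4038, intron of Y37D8A.6, chrIII:12860353-12860453, A+T 60.4%: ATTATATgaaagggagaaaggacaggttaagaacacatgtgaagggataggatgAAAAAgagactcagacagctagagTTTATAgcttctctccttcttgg
rank 4039, promoter windows of piRNA genes, chrIV:14675923-14676023, A+T 55.5%: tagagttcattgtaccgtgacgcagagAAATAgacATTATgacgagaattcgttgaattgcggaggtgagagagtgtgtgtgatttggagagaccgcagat
rank 4043, intergenic, chrIII:10634867-10634967, A+T 42.6%: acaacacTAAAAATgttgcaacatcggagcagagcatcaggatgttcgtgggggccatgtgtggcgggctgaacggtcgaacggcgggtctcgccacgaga
rank 4044, promoter windows of F08G12.3 and snrp-40.1, beside a peak, chrX:11299960-11300060, A+T 52.5%: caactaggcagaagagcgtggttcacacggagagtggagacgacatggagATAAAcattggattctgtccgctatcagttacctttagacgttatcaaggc
rank 4135, coding exon of nadk-2, chrII:12059617-12059717, A+T 50.5%: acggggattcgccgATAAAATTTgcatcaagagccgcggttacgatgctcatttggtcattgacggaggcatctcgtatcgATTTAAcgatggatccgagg
rank 4802, intron of Y17G7B.12, chrII:12025555-12025655, A+T 89.1%: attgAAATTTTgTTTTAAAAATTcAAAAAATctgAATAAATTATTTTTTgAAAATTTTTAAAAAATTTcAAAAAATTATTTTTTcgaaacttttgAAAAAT
rank 4372, intron of spop-1, chrIII:10094664-10094764, A+T 33.7%: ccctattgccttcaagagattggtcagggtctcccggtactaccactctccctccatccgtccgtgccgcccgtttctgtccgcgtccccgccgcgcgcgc
The last peak and the first members carried nearly the same signal and did not share a base composition. The window of the last peak is not typical of peaks, which averaged 53.1% A+T against 60.6% in members. Only 3.20% of peaks had 70% A+T or more. The window at rank 4802 is mostly A/T runs, and the window at rank 4372 has none and ends in a GC repeat.

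Nothing in the signal marked the threshold. The last peak and the first member both had a signal of 67.91, and the last member and the first weaker region both had 44.5. The median signal was 52.5 for members, 106 for peaks and 26.9 for weaker regions. The deposited −log10 q-value was 2.866 on both sides of the peak threshold and 1.092 on both sides of rank 8000. By that measure 2933 members had a q-value of 0.05 or less, and no weaker region had. All members except 1 were 456 bp wide.

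The 5 regions on each side of the upper limit differed in kind, as single examples. They do not show the shares around the limit, where promoters held 68% of the 500 ranks above and 61.4% of the 500 below. Just inside the peaks were ranks 4033 to 4037, of which the regions in the promoter windows of lgg-2, an autophagy gene of the LC3 family, and F56B6.6 were promoter regions and the other 3 were intergenic. Just outside were an intron of Y37D8A.6 (rank 4038), windows of 6 piRNA genes on chromosome IV (4039), the windows of edc-3 and snrp-27 (4040), an intron of dep-1 (4041) and the windows of Y56A3A.22, ccf-1 and trap-4 (4042). The replicates ranked these 10 regions differently. The region at rank 4033 ranked 1936 in replicate 1 and 9787 in replicate 2, and the region at rank 4041 ranked 4067 and 4531.

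Many members were neighbours of a stronger peak. Of the 3963 members, 562 (14.2%, interval 13.1 to 15.3) overlapped a thresholded peak by at least 1 bp, compared with 1146 of 22000 weaker regions (5.21%, interval 4.92 to 5.51). Each of the 562 lay beside a different peak. They are called flanking members, and the other 3401 are called separate members. This division was chosen after the distances had been seen.

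The flanking members sat at an almost fixed distance from their peak. Their summits were 199 to 423 bp from the peak's summit, with a median of 204 bp, and 371 of them were between 190 and 209 bp away. In each of the 3 lists the smallest distance between any 2 summits was also 199 bp. The peaks beside them came from the whole range of the 4037 peaks, with a median rank of 1637.5 and quartiles at 850.2 and 2748.2. Of the 562, 174 (31.0%) lay beside a peak among the first 1000 of the 4037. Whether a flanking member is a second site or the shoulder of its peak cannot be told apart from lists of called regions.

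**Figure D1:**
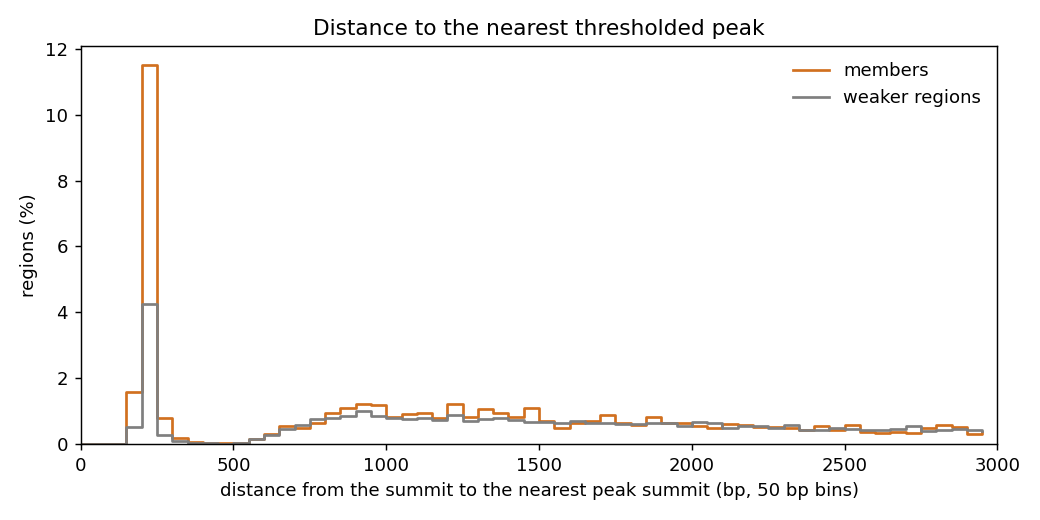
Share of members (orange) and of weaker regions (grey), in percent, by distance in bp from their summit to the nearest peak summit, in bins of 50 bp. The bin from 200 to 250 bp held 11.5% of members and 4.26% of weaker regions, and beyond about 500 bp the lines run close together.

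Members lay near peaks more often than weaker regions did. Within 1 kb of a peak summit lay 20.9% of members and 11.1% of weaker regions, a difference of 9.82 percentage points (interval 8.51 to 11.2). Without the regions that overlap a peak, an alternative chosen after seeing the data, the shares were 7.82% and 6.19% and the difference was 1.64 points (interval 0.717 to 2.64). Within 2 kb, again without them, the shares were 26.7% (interval 25.2 to 28.2) and 20.96% (interval 20.4 to 21.5). Members also overlapped one another: 285 of the 3401 separate members (8.38%) shared bases with another member. The window of arf-5, which encodes a small GTPase of the ARF family, held such a pair, at chromosome IV, 7982204 to 7982659 (rank 4151) and 7982002 to 7982457 (rank 4265). Close spacing was not particular to members. In the pooled list of 30000 regions, at least 3683 gaps between neighbouring summits were shorter than the full region width of 456 bp. The share that overlaps a region of its own set was not computed for peaks or weaker regions, so the 8.38% has no background here.

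The replicates held the members less completely than the peaks. Among the 8000 strongest regions of replicate 1, 2644 members had an overlapping region (66.7%, against 33.6% of all listed regions), and among those of replicate 2, 2904 had one (73.3%, against 34.2%). Both replicates held 1769 members (44.6%, interval 43.1 to 46.2), against 24.4% of all listed regions, 96.98% of peaks and 7.41% of weaker regions. Exactly 1 replicate held 2010 members (50.7%), of which 875 were in replicate 1 alone and 1135 in replicate 2 alone. Neither held 184 (4.64%). The replicates' reads made the pooled ranks, so these shares describe the ranking and test nothing. Almost every member was listed somewhere, since 3898 (98.4%) overlapped a region of both whole lists and none was missing from both.

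Overlap with both replicates dropped quickly along the ranks. It was 78.2% at ranks 4038 to 4999, 50.3% at 5000 to 5999, 30% at 6000 to 6999 and 21.4% at 7000 to 8000. For separate members the same shares were 74.5%, 41.5%, 19.9% and 9.67%.

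Flanking members were held by both replicates more often than separate members. Of the 562 flanking members, 553 (98.4%) overlapped one of the 8000 strongest regions of both replicates, compared with 1216 of 3401 separate members (35.8%, interval 34.2 to 37.4). A flanking member can overlap the replicate's own region at the neighbouring peak. With summits required to lie within 100 bp, 118 flanking members (21%, interval 17.8 to 24.6) and 782 separate members (22.99%, interval 21.6 to 24.4) were held by both, compared with 87.1% of peaks. Against only the 4037 strongest regions of each replicate, 450 flanking members and 19 separate members (0.559% of 3401, interval 0.358 to 0.871) overlapped in both, compared with 76.5% of peaks.

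**Figure D2:**
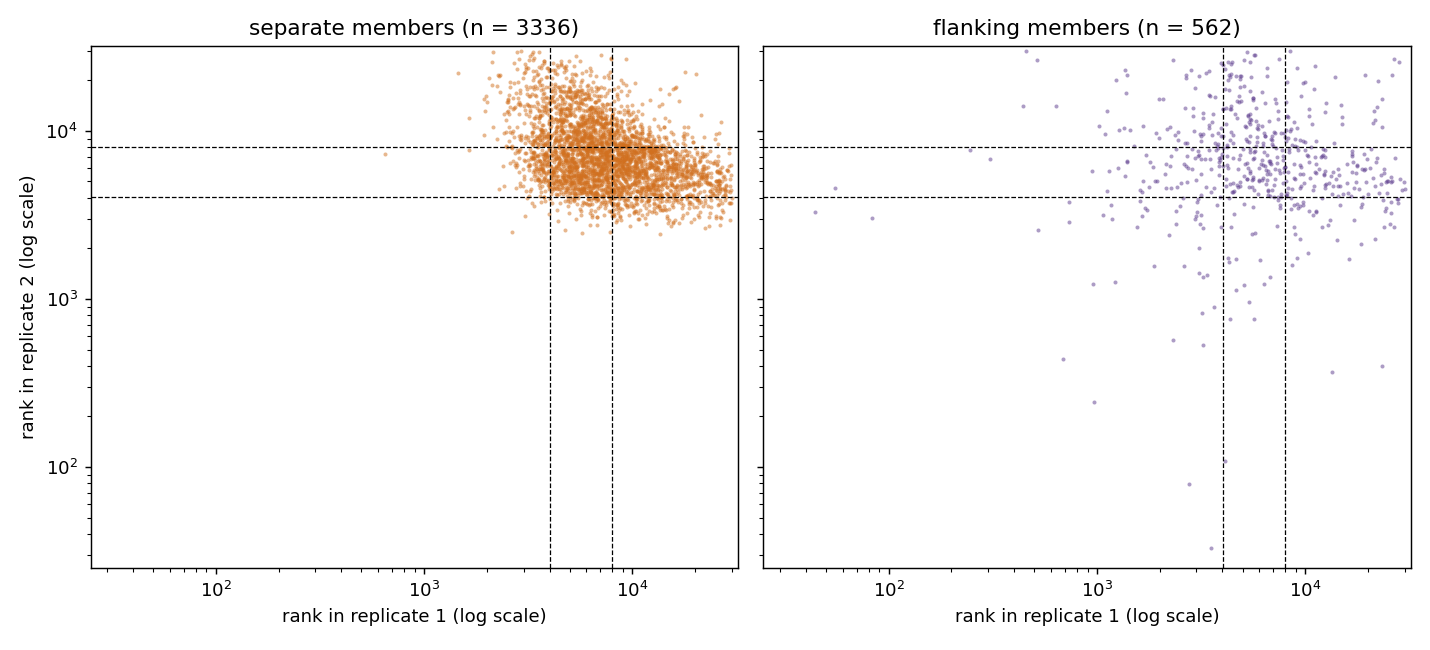
Rank in replicate 1 (horizontal) and in replicate 2 (vertical) of the listed region with the nearest summit, on log scales, for the 3336 separate members listed in both replicates (left) and the 562 flanking members (right). Dashed lines stand at ranks 4037 and 8000, and 1 point is 1 member. Separate members bend around the corner where both ranks are 4037, with almost none inside it, while flanking members scatter from rank 33 upward.

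Single members show the spread between the replicates. Ranks here are those of the overlapping region with the nearest summit, a match chosen after the data were seen. The median rank of the separate members was 7113 in replicate 1 and 6698.5 in replicate 2. The separate member with the best mean rank over both replicates was the arf-5 region at pooled rank 4265, which ranked 2632 in replicate 1 and 2510 in replicate 2. Next came a coding exon of the kinase gene kin-14 (pooled 4795, ranks 3040 and 3113), an intron of frm-8 (4460, ranks 2279 and 4525) and the window of pas-6, a proteasome core subunit (4358, ranks 3353 and 3565). The replicate 1 region behind rank 2632 was also the match of the overlapping arf-5 member at pooled rank 4151, and the frm-8 region ranked outside the first 4037 in replicate 2. The choice of separate members for this purpose was made after the data were seen.

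By the same mean rank over all members, the best 10 were all flanking members. They included windows of met-1, a histone H3 methyltransferase (ranks 1224 and 1269), atgp-1 (2320 and 572) and hmg-1.2, an HMG-box protein (2750 and 79). The largest disagreements were flanking members too. A member in the window of serp-1.1 ranked 3542 in replicate 1 and 33 in replicate 2, and one in the window of K11D2.4 ranked 44 and 3294. An intron of zfp-1 ranked 515 and 26387. In these cases the nearest summit in one replicate may be that of the neighbouring peak, which was not tested.

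**Figure D3:**
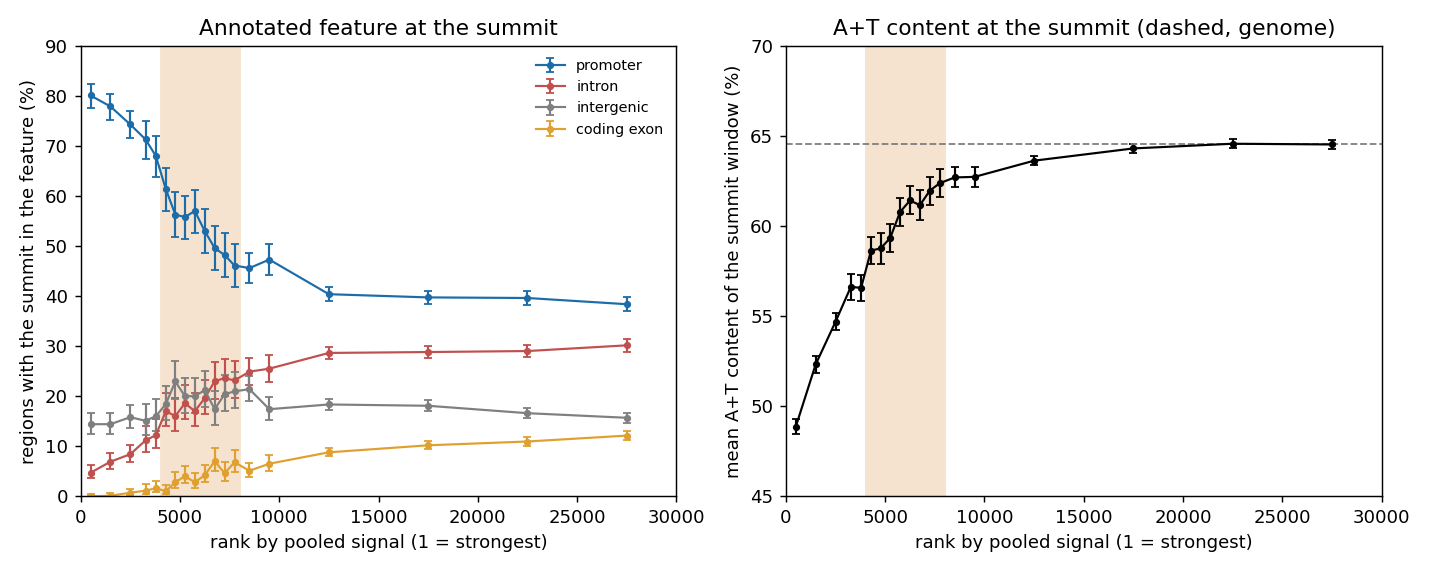
Left, share of summits, in percent, in promoter windows, introns, intergenic sequence and coding exons against rank in the pooled list, with 95% Wilson intervals. Right, mean A+T content of the 101 bp summit window, in percent, with 95% intervals, and the genome's 64.6% as a dashed line. The shaded band holds the members, in which the promoter share runs from 61.4% to 46.1% and A+T content from 58.6% to 62.4%.

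Members lay at promoters less often than peaks and more often than weaker regions. Promoter windows, which ran from 1000 bp upstream of an annotated transcript start to 200 bp past it, held 2116 member summits (53.4%), compared with 75.5% of peaks and 40.2% of weaker regions. The difference was −22.1 percentage points from peaks (interval −24.1 to −20) and 13.2 points from weaker regions (interval 11.6 to 14.9). In the replicates' own lists, the same ranks had 53.9% (replicate 1) and 54.4% (replicate 2) at promoters. Both differences kept their sign on all 6 chromosomes. Promoter summits of members lacked the window of a protein-coding gene more often than those of peaks and less often than those of weaker regions: 568 of 2116 (26.8%, interval 25 to 28.8) had none, against 19.3% of peaks (interval 17.9 to 20.7), 31.6% of weaker regions (interval 30.6 to 32.5) and 28.2% of all listed regions. Windows of tRNA genes held 79 members (1.99%), 5.70% of peaks and 0.882% of weaker regions.

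Introns and coding exons held more members than peaks and fewer members than weaker regions, as shares. Introns held 784 member summits (19.8%), against 7.95% of peaks and 28.8% of weaker regions. Coding exons held 165 (4.16%), against 0.545% and 10.1%, so that members exceeded peaks by 3.62 percentage points (interval 2.98 to 4.31) and the difference from weaker regions was −5.91 (interval −6.62 to −5.14). Both kept their signs on all 6 chromosomes. The strongest coding exon members were in Y74C10AL.2 (rank 4045), smut-1 (4073) and nadk-2 (4135), an NAD kinase. The strongest intron members after Y37D8A.6 were in dep-1, a receptor tyrosine phosphatase (rank 4041), and F09E10.5 (4047).

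Intergenic sequence held a larger share of members than of peaks or of weaker regions as a whole. It held 798 member summits (20.1%), 5.10 percentage points more than in peaks (interval 3.43 to 6.77) and 2.76 more than in weaker regions (interval 1.44 to 4.13). In replicate 1 the same differences were 3.07 (interval 1.41 to 4.73) and 1.56 (interval 0.272 to 2.91), and in replicate 2 they were 4.47 (interval 2.81 to 6.14) and 1.71 (interval 0.399 to 3.08). The 1000 weaker regions that follow the members in rank had 21.4% (interval 18.97 to 24.1), and the share then fell to 15.7% at ranks 25001 to 30000. The 3 strongest intergenic members were nearest to the starts of Y39A1A.9 (rank 4043), R05C11.4 (4046) and ZK622.1 (4060), and the last of these was 8128 bp away. The 3′ untranslated regions held 71 members (1.79%), against 0.347% of peaks and 2.86% of weaker regions, led by zfr-1 (rank 4085), nrsn-1 (4116) and nra-1 (4139). The 5′ untranslated regions and other exons each held under 0.5% of every group, with intervals of the differences that held 0.

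The promoter share fell along the ranks on both sides of the threshold, and these data do not separate a step there from that decline. It was 68% in the 500 ranks above the threshold and 71.3% in the 537 ranks before those, and it was 61.4% in the 500 below and 56.3% at ranks 4538 to 4999. Across the threshold this was a change of −6.6 percentage points (interval −12.5 to −0.676). In replicate 1 the change at the same ranks was −5.4 (interval −11.4 to 0.618) and in replicate 2 −7.8 (interval −13.7 to −1.81), so the interval excluded 0 in 1 of 2 libraries. With starts of protein-coding transcripts alone it was −6 (interval −12.1 to 0.196). Mean A+T content rose across it from 56.6% to 58.6%, a change of 2.07 points (interval 1.00 to 3.13), against 0.996 (interval −0.208 to 2.20) in replicate 1 and 0.891 (interval −0.205 to 1.99) in replicate 2. Within the members the promoter share then fell from 61.4% at ranks 4038 to 4537 to 46.1% at 7500 to 8000, next to 45.6% in the 1000 weaker regions that follow.

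Flanking members were at promoters more often than separate members, and in introns less often. Of them 72.1% were at promoters and 9.43% in introns, against 50.3% and 21.5% of separate members. The promoter difference between the 2 kinds was 21.8 percentage points (interval 17.6 to 25.7). Their share upstream of the nearest protein-coding start was closer to that of separate members. It was 66.6%, against 63.5% of separate members (difference 3.01 points, interval −1.30 to 7.12) and 79.4% of peaks. Their median distance to that start, in either direction, was closer to that of peaks. It was 531 bp, against 444 bp in peaks and 1263 bp in separate members. The first 300 bp upstream held 19.8% of flanking members, 15.9% of separate members and 35.7% of peaks. They also lay more often in windows of coding genes on both strands (15.5% of all flanking against 4.79% of all separate members). Without the regions that overlap a peak, the promoter share of members still lay between that of peaks and that of weaker regions.

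Separate members held by both replicates lay at promoters more often than those held by 1, and rank moved with this. Promoters held 54.9% of the 1216 in both, 47.9% of the 2001 in exactly 1 and 45.7% of the 184 in neither. Both against exactly 1 differed by 7.01 percentage points (interval 3.45 to 10.5). The median pooled rank of the 3 groups was 4995, 6470 and 7421, and at ranks up to 6019 the difference was 1.995 points (interval −2.83 to 6.82), while past rank 6019 it was 8.23 points (interval 1.497 to 14.9). Mean A+T content was 59.4%, 60.5% and 63.3%. Both against exactly 1 differed by −1.04 points (interval −1.69 to −0.401), but by −0.231 up to rank 6019 (interval −1.09 to 0.632) and 0.276 past it (interval −0.979 to 1.53). Exactly 1 against neither differed by −1.98 points past rank 6019 (interval −3.32 to −0.639). The split by replicates, and by rank within it, was chosen after the data were seen.

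Member summits were mostly upstream of genes. The nearest protein-coding start lay downstream of 2535 member summits (63.97%), against 79.4% of peaks and 50.6% of weaker regions, differences of −15.5 percentage points (interval −17.4 to −13.5) and 13.3 points (interval 11.7 to 14.96). The median position was −240 bp for members, −233 bp for peaks and −21 bp for weaker regions, with negative values upstream. Members were more spread around it: the median distance in either direction was 1166 bp, against 444 bp for peaks and 1428 bp for weaker regions. The first 300 bp upstream held 16.5% of members (interval 15.4 to 17.7), 35.7% of peaks and 8.45% of weaker regions.

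Promoters shared by genes on opposite strands held fewer members than peaks. Of 1547 member summits in the window of a protein-coding transcript, 250 (16.2%) lay in windows of both strands, against 28.9% of peaks and 7.86% of weaker regions. The differences were −12.7 percentage points (interval −15.2 to −10.1) and 8.30 points (interval 6.41 to 10.3). Both kept their sign on all 6 chromosomes, with intervals that excluded 0 on 5. On X they were −3.48 and 2.76 points.

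Members were divided among the 6 chromosomes much like the other listed regions, while their position along the chromosomes differed. Chromosome III had the most members per Mb (55.3) and V the fewest (26.1), as among peaks (55.6 and 26.1). Of the 12 differences in a chromosome's share, from peaks or from weaker regions, 1 had an interval that excluded 0 (chromosome IV against weaker regions, −1.34 percentage points, interval −2.52 to −0.0988). The middle 50% of the chromosomes held 50.04% of members, 54.1% of peaks and 42.8% of weaker regions. The difference from weaker regions was 7.25 points (interval 5.56 to 8.94), with the same sign on all 6 chromosomes. The difference from peaks was −4.04 points (interval −6.22 to −1.85) and had the opposite sign on X (2.79). For members up to rank 6019 it was −1.25 points (interval −3.93 to 1.43).

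Members were richer in A+T than peaks and poorer than weaker regions. The mean A+T content of the summit window was 60.6% ± 9.12 (SD over 3963 regions), against 53.1% ± 8.11 for peaks, 64.1% ± 8.90 for weaker regions and 64.6% for the genome. The difference was 7.42 percentage points from peaks (interval 7.05 to 7.80) and −3.55 points from weaker regions (interval −3.85 to −3.24), with the same sign on all 6 chromosomes. At the same ranks the mean was 61.8% in replicate 1 and 60.6% in replicate 2. Single members ranged from 33.7% to 89.1%, the 2 windows printed above. Windows of 70% A+T or more made up 16.7% of members, 3.20% of peaks and 27.9% of weaker regions.

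The same order held within the 3 largest classes of sequence. In promoters the difference from peaks was 6.87 percentage points (interval 6.39 to 7.36), in introns 9.35 (interval 8.21 to 10.5) and in intergenic sequence 7.17 (interval 6.32 to 8.02). Against weaker regions the differences were −3.37, −4.46 and −4.03 points in these 3 classes, each with an interval below 0. In coding exons 165 members averaged 57.6% and 2217 weaker regions 57.5% (difference 0.164, interval −0.984 to 1.31). The intervals against weaker regions also held 0 in 5′ and 3′ untranslated regions and other exons, which had 13, 71 and 16 members. Flanking members were richer in A+T than separate members, with 62.4% against 60.3% (difference 2.19 points, interval 1.35 to 3.02). Over the whole listed region the differences shrank to 2.88 points from peaks and −1.96 from weaker regions.

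**Figure D4:**
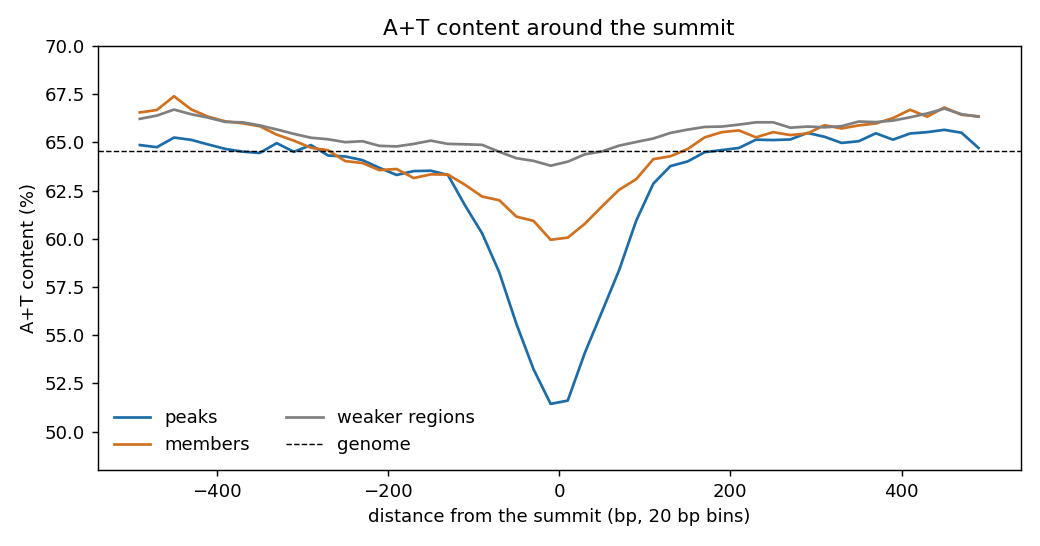
Mean A+T content, in percent, in bins of 20 bp from 500 bp before to 500 bp after the summit, for peaks (blue), members (orange) and weaker regions (grey), with the genome mean dashed. In the bin just before the summit the means are 51.4% in peaks, 59.9% in members and 63.8% in weaker regions, and the 3 lines come together away from it.

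GA repeats and the motifs richest in G and C ran opposite to A+T content, with most matches in peaks and fewest in weaker regions. The search took each motif on both strands of the 101 bp window, and a match describes letters, not a bound site. GAGAGA, the core of GA repeats, was in 647 member windows (16.3%), 31.6% of peak windows, 7.86% of weaker windows and 12.2% of all listed windows. CTGCGTC was in 4.69%, 13.1%, 1.36% and 3.37%. Within windows of 60 to 70% A+T the GAGAGA difference was −6.03 percentage points from peaks (interval −9.70 to −2.58) and 5.76 from weaker regions (interval 3.99 to 7.70), and the CTGCGTC difference was −2.58 (interval −4.78 to −0.765) and 1.85 (interval 1.07 to 2.87). The limits of that bin were chosen after the data were seen. GAGAGA was in 10.9% of flanking windows and 17.2% of separate ones. GCGCGC was in 2.50% of member windows, 7.13% of peak windows and 1.21% of weaker windows. Within windows of 60 to 70% A+T its difference was −1.19 points from peaks (interval −2.77 to −0.0056). From weaker regions it was 0.432 there, with an interval that held 0 (−0.0635 to 1.17).

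Motifs rich in A and T were found least often in peaks and most often in weaker regions over all windows. AAATTT was in 20.3% of member windows, 8.97% of peaks, 29.1% of weaker regions and 25.2% of all, and a run of 8 A or 8 T (AAAAAAAA) in 14.5%, 6.29%, 17.96% and 15.9%. TTTCAG, which resembles the worm's 3′ splice site, was in 12.7%, 6.69%, 18.3% and 15.98%. For AAAAAAAA this order did not hold at matched composition. The difference from peaks was 0.728 points in windows of 50 to 60% A+T (interval −0.974 to 2.49) and 3.34 points at 60 to 70% (interval −0.116 to 6.53). From weaker regions it was −3.43 points over all windows (interval −4.61 to −2.19), 1.64 at 50 to 60% (interval 0.286 to 3.18) and 1.47 at 60 to 70% (interval −0.550 to 3.64). AAATTT stayed below weaker regions in both bins, by −2.67 (interval −4.35 to −0.815) and −3.22 points (interval −5.55 to −0.767). Its difference from peaks was 2.29 points at 50 to 60% (interval 0.364 to 4.28) and 1.25 at 60 to 70% (interval −2.78 to 5.08). For TTTCAG the differences from peaks were 3.12 (interval 1.32 to 5.00) and 1.51 (interval −1.94 to 4.70), and those from weaker regions −3.38 (interval −5.02 to −1.58) and −3.58 (interval −5.56 to −1.44). CACGTG, the E-box, was in 2.15% of members, 2.38% of peaks and 1.95% of weaker regions, with intervals of both differences that held 0. TGATAA, which resembles the sites of a family of zinc finger factors, was in 6.91%, 3.44% and 7.90%, and TATATATA was in 10 member windows.

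Members were the strongest region of many genes that had no peak. A gene was counted when a listed region had its summit in the promoter window, as was so for 6861 protein-coding genes. Of these, 2987 had a peak, 1117 had a member as their strongest region (16.3%, interval 15.4 to 17.2) and 2757 had only weaker regions. Among the 2987 genes with a peak, 531 also had a member. Of the 1117, 16 rested on a flanking member. Which gene a region acts on, if any, was not tested, and neighbouring genes share windows.

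**Figure D5:**
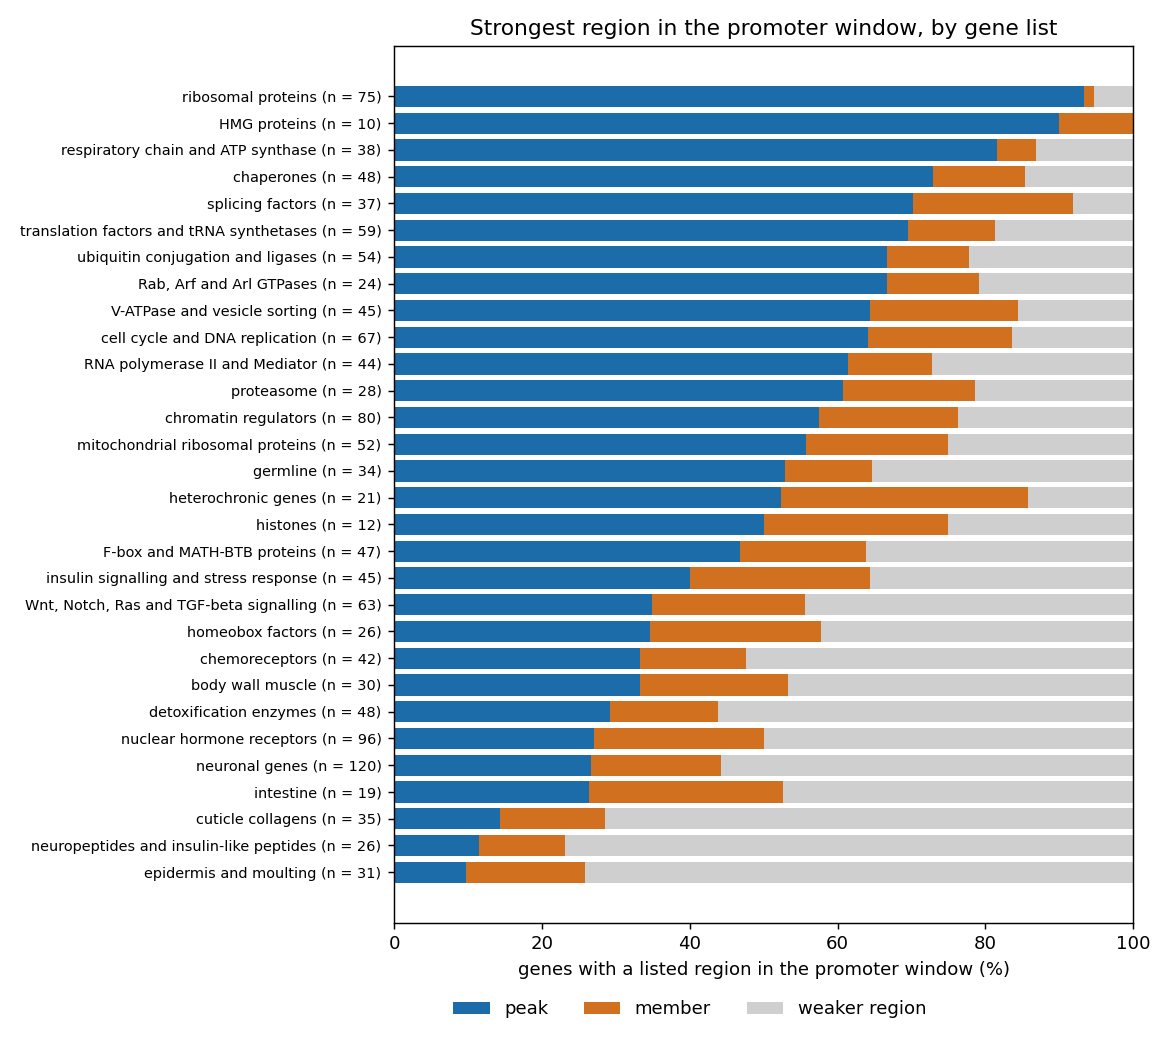
Share of genes, in percent of those with a listed region in the promoter window, whose strongest region was a peak (blue), a member (orange) or a weaker region (grey), for the lists with 10 or more such genes, ordered by the share with a peak. The orange share stays between 1.33% (ribosomal proteins) and 33.3% (heterochronic genes), while the blue share runs from 9.68% to 93.3%.

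The lists of protein synthesis differed in how many genes had members. Among 75 ribosomal protein genes with a listed region, 70 had a peak and 1 had a member, rpl-37 (rank 6186 at −943 bp from its start, ranks 4565 and 10900 in replicates 1 and 2). Mitochondrial ribosomal proteins had members at 10 of 52 (19.2%), led by mrpl-39 (rank 4121), mrpl-36 (4230) and mrpl-18 (4283). Translation factors and tRNA synthetases had members at 7 of 59, among them the glutaminyl and valyl tRNA synthetase genes qars-1 (4432) and vars-1 (4562). The respiratory chain list had 2 of 38, the complex I subunit gene nuo-6 (4050) and cox-11 (7514). The background for these shares is 16.3%. The interval of the ribosomal protein share (1.33%, interval 0.236 to 7.17) lay below it, and the intervals of the mitochondrial (10.8 to 31.9), translation (5.87 to 22.5) and respiratory (1.46 to 17.3) shares held it. A gene with a peak cannot have a member as its strongest region, so a high share of peaks lowers the share of members. Of the 5 ribosomal protein genes without a peak, 1 had a member (20%), against 28.8% over all protein-coding genes without a peak.

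Genes for handling RNA, protein and membranes had members in shares of 11.1% to 21.6%, next to 16.3% over all protein-coding genes with a listed region. Of the genes without a peak, 8 to 18 per list, the shares ran from 29.4% (RNA polymerase and Mediator) to 72.7% (splicing factors). Splicing factors had members at 8 of 37 (21.6%, interval 11.4 to 37.2), which were 8 of the 11 without a peak (72.7%, where the share over all protein-coding genes without a peak was 28.8%). They were led by the spliceosomal genes snrp-27 (rank 4040, ranks 5818 and 5571) and prp-21 (4111, ranks 6383 and 4185), and rsp-5 and snr-3 shared the region at 4373. V-ATPase and vesicle sorting genes had members at 9 of 45, led by the proton pump subunit gene vha-10 (4301), which ranked 23328 in replicate 1 and 2728 in replicate 2. Proteasome genes had members at 5 of 28, led by rpn-5 (4148), pas-6 (4358) and rpn-8 (4603). The region of rpn-5 was also that of the cohesin gene scc-1. Ubiquitin genes had members at 6 of 54 (ubh-4, ubc-21 and ubc-22 first), chaperones at 6 of 48 (hsp-70, dnj-7 and dnj-24 first), RNA polymerase and Mediator genes at 5 of 44 (rpoa-1 and rpc-11, subunits of RNA polymerases I and III, and rpoa-2) and Rab, Arf and Arl GTPases at 3 of 24 (arf-5, rab-8 and rab-30).

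Among genes with a listed region, chromatin and cell cycle genes had members in shares close to the background of 16.3%. Of those without a peak, 44.1% of 34 chromatin genes and 54.2% of 24 cell cycle genes had a member. Over all protein-coding genes without a peak the share was 28.8%. The list of chromatin regulators, which was matched by symbol, had them at 15 of 80 (18.8%, interval 11.7 to 28.7). The strongest were at the remodeller gene chd-3 (rank 4437), the deacetylase gene hda-6 (4497) and the SWI/SNF gene swsn-9 (4645). Cell cycle and DNA replication genes had them at 13 of 67 (19.4%, interval 11.7 to 30.4), led by the replicative helicase gene mcm-2 (4122), scc-1 (4148) and the ribonucleotide reductase gene rnr-2 (4172). In replicates 1 and 2, mcm-2 ranked 6084 and 4798 and rnr-2 ranked 3721 and 8450. Histone genes had members at 3 of 12, his-35 and his-41 on 1 shared region and his-71. Germline genes had them at 4 of 34 (spe-6, tra-4 and fem-3 first). Of the 10 HMG protein genes with a listed region 9 had a peak, and sox-2 had a member (rank 5383).

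Regulators of development and stress had members at 20.6% to 24.4% of the genes with a listed region. The share over all protein-coding genes was 16.3%, which lay within the interval of every list in this paragraph. Of the genes without a peak, 31.4% (nuclear hormone receptors) to 40.7% (insulin signalling and stress) had a member, against 28.8% over all protein-coding genes without a peak. Nuclear hormone receptors had members at 22 of 96 (22.9%, interval 15.6 to 32.3) and peaks at 26. The strongest were nhr-56 (rank 4143), nhr-134 (4255) and nhr-85 (4465). Insulin signalling and stress genes had members at 11 of 45 (24.4%, interval 14.2 to 38.7), and peaks at 18, led by the p38 kinase gene pmk-2 (4077, ranks 4094 and 3733), tir-1 (4340) and the FOXO factor gene daf-16 (4857). Signalling genes of the Wnt, Notch, Ras and TGF-beta pathways had members at 13 of 63 (20.6%, interval 12.5 to 32.2) and peaks at 22, led by sma-9 (4145), mig-2 (4393) and the SMAD gene sma-3 (4494). Homeobox factors had them at 6 of 26 and peaks at 9, led by dve-1 (5727), ceh-89 (6256) and ceh-58 (6580).

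Heterochronic genes, which time larval development, had members at 7 of 21 (33.3%, interval 17.2 to 54.6) and peaks at 11. This list holds noncoding genes, and over genes of all classes the member share was 15.5%, which lay below that interval. The 33.3% was the highest share among lists with 10 or more such genes, out of 33 lists chosen with earlier results known. Of the 10 heterochronic genes without a peak, 70% had a member, against 22.9% over genes of all classes without a peak. The strongest were alg-2, an Argonaute gene (rank 4247, ranks 2466 and 8145), the noncoding RNA gene lep-5 (4818, ranks 7524 and 5130) and sea-2 (5202, ranks 3470 and 10489). The other members of the list were lin-41 (6004), lep-2 (6705), the period-like gene lin-42 (7484) and the nuclear hormone receptor gene daf-12 (7946), named after their values were seen. For daf-12 the ranks were 23155 and 6120, so replicate 2 alone held it among its 8000 strongest.

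Lists that stand for tissues, germline genes and neuropeptides included, had members in shares from 11.5% to 26.3%. This counts the lists where 10 or more genes had a listed region. The interval of each of these lists held the 16.3% of all protein-coding genes with a listed region. Of their genes without a peak, 13.0% (neuropeptides) to 35.7% (intestine) had a member, against 28.8% over all protein-coding genes without a peak. Neuronal genes had members at 21 of 120 (17.5%), led by osm-11 (rank 4155), the potassium channel gene twk-48 (4190) and the synaptotagmin gene snt-3 (4359). Body wall muscle genes had them at 6 of 30, led by unc-78 (4417, ranks 4283 and 4198), cpn-3 (4805) and the myosin chaperone gene unc-45 (5648). Intestinal genes had them at 5 of 19 (pgp-2, acdh-7 and the desaturase gene fat-6 first). Epidermis and moulting genes had them at 5 of 31 (mlt-9, bli-4 and lpr-1 first), and cuticle collagens at 5 of 35 (col-103, dpy-4 and col-109 first). Neuropeptides had them at 3 of 26, nlp-14, flp-9 and nlp-12. The pharynx list had 2 genes with a listed region, of which the FoxA factor gene pha-4 had a member (7473). Members were also found at 6 of 42 genes of the chemoreceptor list, which was matched by symbol (srh-2, srx-21 and srh-76 first). The detoxification list had them at 7 of 48 (dhs-17, cest-26 and dhs-30 first). The F-box and MATH-BTB list had them at 8 of 47 (fbxc-54, fbxa-141 and fbxa-72 first). Among 8 C-type lectin genes only clec-10 had one, a flanking member. The major sperm protein list had 1 gene with a listed region, and its strongest region was a peak. Whole animals were used, so no tissue can be assigned.

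The tagged gene itself was outside these regions. The window of hmg-11 held no listed region. Those of hmg-12, another HMGA-type gene, and unc-119, the gene mutated in the strain, held peaks at ranks 1364 and 3009.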

How the data were processed

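The data were 8 peak lists, 4 on ce10 and 4 on ce11, from 2 biological replicates of 1 group. The replicate lists and the pooled list have 30000 regions each, background included. Each region carries the authors' signal value and the authors' −log10 q-value; the scale of the signal is not given, and the −log10 q-values are capped at each list's highest value. The deposited summit offset gave the summit. The study's file list derives the pooled list from the alignments of both replicates and 1 further file. The sources used here do not give the aligner, the peak caller or their versions.

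The pooled ce11 list was ranked by signal. Summits were annotated with Ensembl release 115 (promoter windows first, then 5′ untranslated, coding, 3′ untranslated and other exonic sequence, then introns, the remainder being intergenic), and bases came from the RefSeq sequence of WBcel235. Shares carry Wilson intervals, differences of shares Newcombe intervals and differences of means intervals from standard errors, all at 95%, with no p-values (python 3.11.15, numpy 2.4.6, pandas 2.3.3). Interval and overlap code was tested on simulated data. Regions are not replicates of the animals, and the replicate lists show the spread between libraries. Overlap means at least 1 bp unless stated. The 33 gene lists were matched by symbol and share some genes. A symbol does not show what a gene encodes, so a list can hold genes that are not of the kind it names. Whether they do was not tested.

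Genes and regions named were up to 3 genes of each list by signal, the 10 members of best mean replicate rank, the 5 regions on each side of a limit, the 5 largest rank ratios in each direction, the 3 strongest members of each feature class, plus unc-119, hmg-12 and hmg-11. Other names were chosen after their values were seen. Members, lists and tests were chosen with earlier results of these data known. Alternatives were the replicate lists, members up to rank 6019 or past it, other windows, overlaps and sequence widths, ce10, and leaving out regions that overlap a peak.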

Additional observations from a re-analysis of the deposited data

How the results depend on the processing

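Of the alternative values, 105 kept their direction and side of 0, or stayed within the main interval or within 1.5 times the main count, 14 did not, and none reversed. Of the 95 that compared members with peaks or weaker regions, 94 did so, and the exception was the share in the chromosome centre against peaks, −1.25 points for members up to rank 6019 (the stronger members). The interval of the change of promoter share at the threshold held 0 with starts of protein-coding transcripts only (−6 points). It also held 0 in the list of replicate 1 (−5.4 points) and excluded 0 in that of replicate 2 (−7.8 points). The share of members held by both replicates, 44.6%, was 50.04% to 52.6% when each replicate's own ranks were set against the other replicate. It was 63.8% in the stronger members and 25.5% past rank 6019, 39.6% with an overlap of at least 50% of both regions, 22.7% with summits within 100 bp and 11.8% against as many regions as there are peaks. Without members that overlap a peak, chosen after seeing the data, it was 35.8%, and 0.559% against as many regions as there are peaks. The count of genes whose strongest region was a member, 1117, was 694 for members up to rank 6019 and 423 past it, by construction, since each of these sets holds fewer regions.

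No paired analysis was possible because there was 1 group. The sets on either side of rank 6019 were not run for the change at the threshold, nor coding starts for windows of both strands, which use these already. The lists hold no read numbers, so what depth limits cannot be stated. Regions weaker than the last listed one were not seen, and no control library was analysed here, so background shared by all libraries cannot be told apart from binding.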
